A study of Mus musculus with 20 samples.

Results

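Between day 7 and day 14 in embryoid body (EB) culture, 93 of 15275 genes tested changed in 3 lines of mouse induced pluripotent stem cells (iPSCs), 69 of them upward and 24 downward. The keratin genes Krt80 and Krt7, the BMP ligand Bmp6 and the stress-response gene Nupr1 were among those that rose. The replication genes Pole and Dna2, the mitotic cyclin Ccnb1, the Nodal co-receptor Tdgf1 and the imprinted genes Peg10 and Mest were among those that fell. Counts for this step came from 6 of the 20 RNA-seq libraries in the series, namely day 14 and day 7 of each of the 3 lines that the study names, and the 3 pairs were compared within line.

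The lines were WT#1-4, which is wild type, and Nox4-/-#5-8 and Nox4-/-#5-23, which lack NADPH oxidase 4, an enzyme that makes reactive oxygen species. Every line was made from embryonic fibroblasts that received Oct4, Sox2, Klf4 and c-Myc by viral transduction, so the controls carry these genes too. Each line is 1 clone with 1 library per day, the iPSCs were kept on a feeder layer of mouse embryonic fibroblasts, and no repeat culture was sequenced. The p-values therefore rest on the spread of the change between 3 clones of mixed genotype, moderated by the spread of other genes. The titles and characteristics give day 14 for the last time point, while the protocol text of the labels lists day 10. A second wild type line, WT#20D-17, has 1 library for each of the same days. It was held out of the test and is given as a separate comparison.

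EBs are aggregates of pluripotent cells that form when the cytokine LIF is withdrawn, and after plating they spread and give rise to derivatives of the germ layers. In such cultures pluripotency genes fall early, lineage genes follow, and proliferation slows as cells differentiate. In bulk RNA, fewer cells of a type and less RNA per cell cannot be told apart, and this holds for every level below.

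The 6 libraries held 20294968 to 26810514 expected counts each, so that 3 counts, taken as the floor, corresponded to 0.112 to 0.148 CPM, the unit of counts scaled to library size. Libraries of 1 line deviated together from the mean of their day, with correlations over 15275 genes of 0.731, 0.511 and 0.664, against at most 0.0328 between lines. Deviations from a mean of 3 lines sum to 0, so positive correlations within lines pull those between lines down. The contrast is therefore no independent support for the pairing. The first principal component took 49.9% of the variance and separated WT#1-4 from both Nox4-/- lines. The second took 24.1% and set the 2 Nox4-/- lines apart from each other. On days 7 and 14 it was 13.55 and 78.59 in Nox4-/-#5-8 and -48.43 and -48.88 in Nox4-/-#5-23. WT#1-4 lay between them, at 1.495 and 3.682. The targeted gene Nox4 (chromosome 7, 87246096 to 87398710 of GRCm38) was low, at 0.455 and 0.149 CPM on days 7 and 14 in WT#1-4, 0.0482 and 0 CPM in Nox4-/-#5-8 and 0 and 0 CPM in Nox4-/-#5-23, and was not tested. Its levels went with the labels, with 0.149 to 0.874 CPM over the 5 days in WT#1-4 and at most 0.0839 CPM in any library of the Nox4-/- lines, but WT#1-4 on day 14 was close to the floor. The held-out line WT#20D-17 went from 9.01 to 2.94 CPM.

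The markers of the cultures went only partly with their label. Pou5f1 was 2861 and 1278 CPM on days 7 and 14 in WT#1-4, 2946 and 1873 CPM in Nox4-/-#5-8 and 3704 and 3677 CPM in Nox4-/-#5-23, and Klf4 was 490.2 and 356 CPM on days 7 and 14 in WT#1-4, 720.2 and 460.1 CPM in Nox4-/-#5-8 and 817 and 792 CPM in Nox4-/-#5-23. Counts of these genes cannot be told apart from those of the introduced Oct4 and Klf4 in a gene-level table. Of the other pluripotency genes, Zfp42, Dppa3 and Prdm14 were at 0 counts in all 6 libraries, and Nanog was 0.721 and 0.198 CPM on days 7 and 14 in WT#1-4, 0.337 and 0.603 CPM in Nox4-/-#5-8 and 0.355 and 0.693 CPM in Nox4-/-#5-23. The endoderm markers Afp, Sox17 and Foxa2 were too low to be tested, with at most 1.24 CPM for Afp, 0.531 CPM for Sox17 and 0.397 CPM for Foxa2. Of 22 listed neuron genes, 7 were tested. Among them Stmn2, a microtubule regulator of growing axons, was 627 and 320.1 CPM on days 7 and 14 in WT#1-4, 965 and 1086 CPM in Nox4-/-#5-8 and 546 and 412 CPM in Nox4-/-#5-23. On day 0, before differentiation, it was already at 797, 1091 and 751 CPM in the same order. Its level is therefore no sign of neurons formed in the EBs.

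Of the 15275 genes, 0.452% rose and 0.157% fell past an adjusted p of 0.05. At an unadjusted p under 0.05, 7.58% were higher and 7.0% lower at day 14. A gene was higher in each of the 3 lines in 17.3% of cases and lower in each in 20.7%. These shares are the background for all list counts below. With so few genes past the threshold, 0 calls in a short list say little about its members. All 93 genes past the threshold moved the same way in the 3 lines. Each day 14 library lay above each day 7 library for 28 of the 69 genes that rose, against 4.59% of all genes tested. Each lay below for 17 of the 24 that fell, against 7.02%. The 93 genes were picked by the paired test on these same libraries. That choice favours a shared direction and separate day groups, so these counts describe the genes and are no further support. Absolute log2 changes of the 69 ran from 1.16 to 3.36, and the median change in single lines was 1.57 in WT#1-4, 1.54 in Nox4-/-#5-8 and 1.39 in Nox4-/-#5-23. For the 24 that fell the medians were -1.81, -1.68 and -1.16 in the same order. Over all genes tested, a change of more than 1 log2 unit was seen in 1832 genes of WT#1-4, 1774 of Nox4-/-#5-8 and 504 of Nox4-/-#5-23. The numbers of calls depended on the test: DESeq2 gave 650, a fit over all 15 libraries of the 3 lines gave 524 with 180 higher and 344 lower, and a fit that ignored the line gave 0. Leaving out Nox4-/-#5-8 gave 910 calls, leaving out WT#1-4 gave 277 and leaving out Nox4-/-#5-23 gave 253 (101 higher and 152 lower). No call changed sign in any of these, which used all or most of the same 6 libraries.

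The largest rise among well-expressed coding genes was that of Gem, a small GTP-binding protein that restrains voltage-gated calcium channels (chromosome 4, 11704457 to 11714752). Gem went from 15.5 to 116 CPM in WT#1-4, from 2.17 to 23.8 CPM in Nox4-/-#5-8 and from 2.18 to 17.7 CPM in Nox4-/-#5-23, a log2 change of 3.15 ± 0.26 (SE, adjusted p = 0.000827). All 3 day 14 libraries were above all 3 day 7 libraries. Rgcc, a regulator of the cell cycle first described as a complement-response gene, went from 24.1 to 140.3 CPM in WT#1-4, from 1.16 to 13.7 CPM in Nox4-/-#5-8 and from 9.41 to 40.5 CPM in Nox4-/-#5-23, a log2 change of 2.70 ± 0.30 (SE, adjusted p = 0.00373). Nupr1, a small chromatin-associated protein induced by stress, went from 116 to 458 CPM in WT#1-4, from 40.6 to 190.3 CPM in Nox4-/-#5-8 and from 22.9 to 149 CPM in Nox4-/-#5-23, a log2 change of 2.34 ± 0.25 (SE, adjusted p = 0.00373). Its day groups did not overlap, and it was the most abundant of the 12 largest rises. Cpn1, the catalytic subunit of carboxypeptidase N, went from 6.48 to 31.4 CPM in WT#1-4, from 4.48 to 24.3 CPM in Nox4-/-#5-8 and from 9.19 to 49.1 CPM in Nox4-/-#5-23, a log2 change of 2.41 ± 0.25 (SE, adjusted p = 0.00369), with no overlap between days. Shisa9, an auxiliary subunit of AMPA receptors, went from 1.63 to 6.89 CPM in WT#1-4, from 0.963 to 7.61 CPM in Nox4-/-#5-8 and from 8.83 to 48.8 CPM in Nox4-/-#5-23, a log2 change of 2.52 ± 0.32 (SE, adjusted p = 0.00907), and was highest in Nox4-/-#5-23 on both days. Apol9a, of the apolipoprotein L family, went from 3.87 to 30.9 CPM in WT#1-4, from 1.16 to 5.98 CPM in Nox4-/-#5-8 and from 2.66 to 9.55 CPM in Nox4-/-#5-23, a log2 change of 2.45 ± 0.36 (SE, adjusted p = 0.0164). It has close paralogs among which reads may be divided, and its value is uncertain for that reason.

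**Figure D1:**
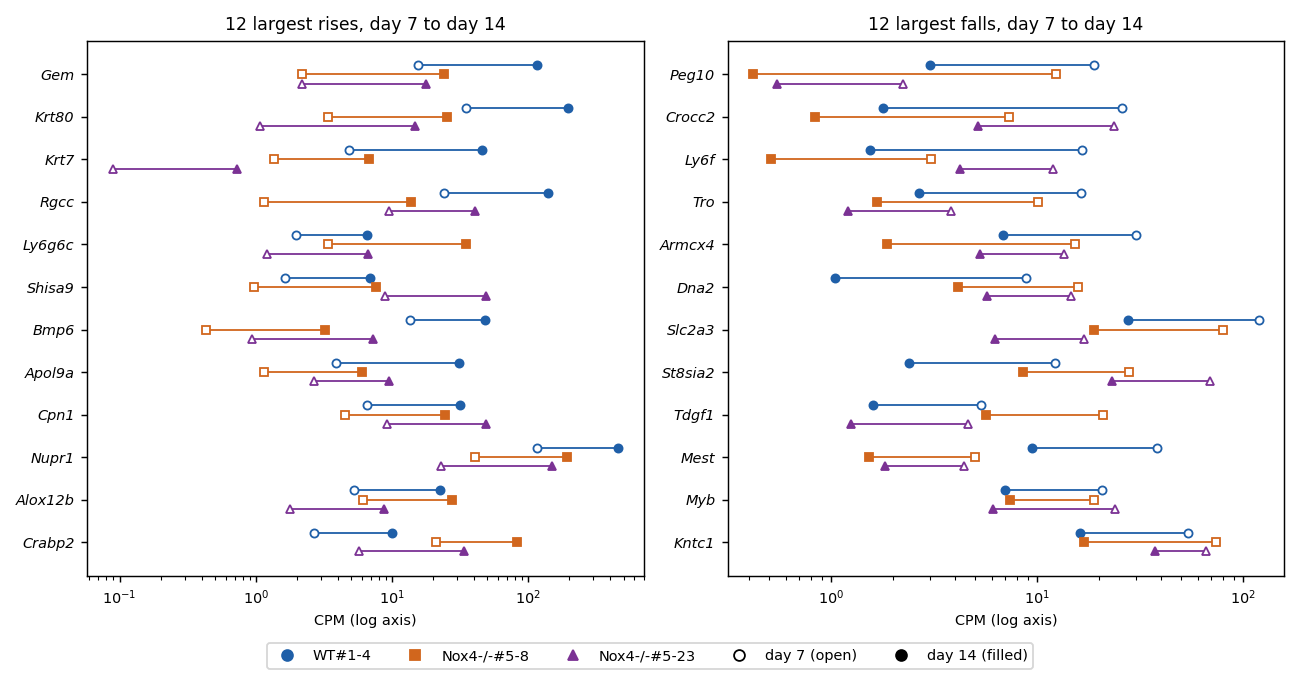
Levels of the 12 largest rises and the 12 largest falls among protein-coding genes that passed the threshold and averaged 10 CPM or more on the higher day, on a log axis of CPM. Open symbols are day 7 and filled symbols day 14, joined within each line. Every line moves the same way for every gene, which the choice of genes required. The lines often start from levels that differ more than the change itself, as for Krt7 and Bmp6.

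Epithelia are cell sheets held together by keratins, desmosomes and tight junctions. In the list of epithelial junctions and keratins, 18 of 21 members were tested and 1, Krt7, passed the threshold. Krt80 is not on that list and was named by the size of its change. Krt80, a type II keratin of differentiating epithelia, went from 34.6 to 194 CPM in WT#1-4, from 3.37 to 25.2 CPM in Nox4-/-#5-8 and from 1.07 to 14.7 CPM in Nox4-/-#5-23, a log2 change of 3.03 ± 0.29 (SE, adjusted p = 0.00215). The long noncoding gene Gm35853 overlaps it on the opposite strand and rose as well (2.91, adjusted p = 0.00972), and reads of the pair may not be told apart. Krt7, a keratin of simple ductal epithelia, went from 4.82 to 45.3 CPM in WT#1-4, from 1.35 to 6.77 CPM in Nox4-/-#5-8 and from 0.0888 to 0.729 CPM in Nox4-/-#5-23, a log2 change of 2.88 ± 0.38 (SE, adjusted p = 0.00985). It was highest in WT#1-4 on both days, and Nox4-/-#5-23 on day 7 had under 3 counts. Of the 18 listed members, 7 with an unadjusted p under 0.05 were higher and 1 was lower, beside 7.58% and 7.0% of all genes. In all 3 lines 9 were higher and 0 lower, beside 17.3% and 20.7%. The median log2 change was 0.58, beside -0.01 over all genes tested. Line medians were 0.84 in WT#1-4, 0.50 in Nox4-/-#5-8 and 0.21 in Nox4-/-#5-23. From day 3 to day 5 they were 0.45, 0.50 and 0.20 in the same order. In WT#20D-17 the late median was 0.04, with Krt80 at 1.02 and 1.05 CPM on days 7 and 14. Krt19, a keratin of simple epithelia, was 539 and 1063 CPM on days 7 and 14 in WT#1-4, 314 and 888 CPM in Nox4-/-#5-8 and 175 and 352 CPM in Nox4-/-#5-23, with a log2 change of 1.20 ± 0.25 (SE, adjusted p = 0.0538), just outside the threshold. Krt8 was 61.6 and 136 CPM on days 7 and 14 in WT#1-4, 42.1 and 76.1 CPM in Nox4-/-#5-8 and 1.51 and 4.01 CPM in Nox4-/-#5-23, with an adjusted p of 0.0577. The adhesion molecule Epcam was 52.6 and 105 CPM on days 7 and 14 in WT#1-4, 38.5 and 74.1 CPM in Nox4-/-#5-8 and 27.2 and 36.0 CPM in Nox4-/-#5-23 (adjusted p = 0.132). Cdh1, the E-cadherin of adherens junctions, was 102 and 179 CPM on days 7 and 14 in WT#1-4, 86.5 and 76.0 CPM in Nox4-/-#5-8 and 57.2 and 62.0 CPM in Nox4-/-#5-23 (adjusted p = 0.685). The tight junction scaffold Tjp1 was the member that was lower at an unadjusted p under 0.05, at 392 and 187 CPM on days 7 and 14 in WT#1-4, 169 and 54.0 CPM in Nox4-/-#5-8 and 189 and 199 CPM in Nox4-/-#5-23.

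The genes that follow were also among the 69, belong to no list and were not tested as a group. Alox12b and Ly6g6c were among the 12 largest rises, and the others were chosen after their values were seen. Alox12b, a lipoxygenase needed for the water barrier of the skin, went from 5.27 to 22.3 CPM in WT#1-4, from 6.12 to 27.4 CPM in Nox4-/-#5-8 and from 1.78 to 8.75 CPM in Nox4-/-#5-23, a log2 change of 2.21 ± 0.29 (SE, adjusted p = 0.00985). Scnn1a, a subunit of the epithelial sodium channel, had a log2 change of 1.71, adjusted p = 0.0201. Ppl, the desmosomal and cornified-envelope plakin periplakin, had 1.80, adjusted p = 0.03. Lamb3, a chain of the laminin that anchors epithelia to their basement membrane, had 1.38, adjusted p = 0.035. Cdh17, an intestinal cadherin, had 3.36, adjusted p = 0.0224, and it reached at most 11.7 CPM. Barx2, a homeobox factor of epithelia and muscle, had 1.51, adjusted p = 0.0268. Ly6g6c, of the LY6 family of membrane-anchored proteins, went from 1.97 to 6.50 CPM in WT#1-4, from 3.37 to 34.9 CPM in Nox4-/-#5-8 and from 1.20 to 6.63 CPM in Nox4-/-#5-23, a log2 change of 2.57 ± 0.39 (SE, adjusted p = 0.0182), and was highest in Nox4-/-#5-8 at day 14. In the list of gut and lung epithelium, 4 of 16 members were tested and 0 passed. At an unadjusted p under 0.05 there were 3, all higher, beside 7.58% of all genes. The defining genes Sftpc, Sftpb, Nkx2-1, Tff3 and Cdx1 were at 0 counts in all 6 libraries. The trophoblast list had 1 call of 5 tested, again Krt7, and a median of 0.15.

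Cell cycle genes made up the most uniform group. All 30 members of the mitosis list were tested, and all 30 were lower in each of the 3 lines, against 20.7% of all genes. All 30 also had an unadjusted p under 0.05, against 7.0% of all genes, while 1 of them passed after adjustment over all genes. Adjusted p-values of the 30 ran from 0.0457 to 0.34, and their log2 changes from -1.27 to -0.49 around a median of -0.96. For 23 of the 30 no day 14 library reached the lowest day 7 library, against 7.02% of all genes. The number past the threshold was 23 with DESeq2, 24 in the fit over 15 libraries, 24 without Nox4-/-#5-8, 7 without Nox4-/-#5-23, 0 without WT#1-4 and 0 with RLE normalization. The median per line was -1.26 in WT#1-4, -0.90 in Nox4-/-#5-8 and -0.75 in Nox4-/-#5-23. In WT#20D-17 it was 0.31, which is of the opposite sign.

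Promoters are shown for the 3 named members of the mitosis list, which had the lowest median of the lists. The list with the highest median, kidney and mesothelium, had a median of 0.96 over 3 genes tested, and its named members are not shown. Mitotic genes are known to share 2 short promoter elements, the CHR (TTTGAA, with the variant TTCGAA), bound by the MuvB complexes, and the CCAAT box, bound by NF-Y. Of 24 windows of 23 genes of the list, from 250 bases before to 50 after the transcription start in RefSeq (GRCm38.p6), 18 (75.0%) held TTTGAA on either strand, beside 12.1% of 13840 windows of 10829 genes tested. CCAAT was in 87.5% of the mitosis windows and 38.0% of all, and TTCGAA in 12.5% and 1.99%. The list was chosen with these elements known, and a match is a description of letters, not a measured site. The windows are read 5′ to 3′ along the gene, and capitals mark these elements or their reverse complements.
Ccnb1 (chr13:100786437-100786736, minus strand): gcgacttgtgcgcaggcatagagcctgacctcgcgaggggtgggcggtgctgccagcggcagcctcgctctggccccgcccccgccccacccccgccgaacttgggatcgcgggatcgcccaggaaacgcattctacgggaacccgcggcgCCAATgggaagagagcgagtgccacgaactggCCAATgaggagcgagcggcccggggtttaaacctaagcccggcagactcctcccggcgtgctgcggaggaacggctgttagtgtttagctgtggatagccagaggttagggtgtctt
Top2a (chr11:99024140-99024439, minus strand): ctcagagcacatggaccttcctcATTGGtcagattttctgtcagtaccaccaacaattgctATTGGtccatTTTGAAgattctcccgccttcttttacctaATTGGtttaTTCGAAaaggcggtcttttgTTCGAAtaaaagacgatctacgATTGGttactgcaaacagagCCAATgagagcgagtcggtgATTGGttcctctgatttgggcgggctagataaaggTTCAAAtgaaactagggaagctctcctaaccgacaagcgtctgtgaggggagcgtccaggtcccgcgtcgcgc
Mki67 (chr7:135716330-135716629, minus strand): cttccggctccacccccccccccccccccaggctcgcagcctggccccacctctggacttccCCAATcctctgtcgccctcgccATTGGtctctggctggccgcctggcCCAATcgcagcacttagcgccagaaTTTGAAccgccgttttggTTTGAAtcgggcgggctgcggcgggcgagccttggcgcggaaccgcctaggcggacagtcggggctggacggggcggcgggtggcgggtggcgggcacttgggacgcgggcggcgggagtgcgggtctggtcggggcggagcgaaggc
The window of Ccnb1 held 2 CCAAT boxes and 0 copies of TTTGAA or TTCGAA. That of Top2a held 2 copies of TTTGAA, 2 of TTCGAA and 6 of CCAAT, and that of Mki67 held 2 of TTTGAA and 3 of CCAAT.

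The levels behind these 3 windows were as follows. Ccnb1, the cyclin that activates Cdk1 for entry into mitosis, went from 148 to 44.6 CPM in WT#1-4, from 196 to 83.0 CPM in Nox4-/-#5-8 and from 118 to 61.2 CPM in Nox4-/-#5-23, a log2 change of -1.27 ± 0.24 (SE, adjusted p = 0.0457). No day 14 library reached a day 7 library. Top2a, the topoisomerase that untangles replicated chromosomes, was 318 and 164 CPM on days 7 and 14 in WT#1-4, 424 and 165 CPM in Nox4-/-#5-8 and 264 and 177 CPM in Nox4-/-#5-23, with a log2 change of -0.92 ± 0.25 (SE, adjusted p = 0.114). Mki67, whose protein Ki-67 coats mitotic chromosomes, was 376 and 139 CPM on days 7 and 14 in WT#1-4, 411 and 112 CPM in Nox4-/-#5-8 and 243 and 186 CPM in Nox4-/-#5-23, with a log2 change of -1.20 ± 0.30 (SE, adjusted p = 0.0905). Both had separate day groups and did not pass the threshold. Other mitotic genes outside the list passed, of which Kntc1 was among the 12 largest falls and Ncapd2 was picked after its value was seen. Kntc1, a kinetochore protein of the spindle checkpoint, went from 53.9 to 16.2 CPM in WT#1-4, from 73.4 to 16.9 CPM in Nox4-/-#5-8 and from 65.9 to 37.2 CPM in Nox4-/-#5-23, a log2 change of -1.52 ± 0.28 (SE, adjusted p = 0.0409). The log2 change was -1.23, adjusted p = 0.045 for the condensin subunit Ncapd2. The nuclear lamina protein Lmnb1, which is not counted as mitotic and was also picked after its value was seen, had -1.35, adjusted p = 0.0407.

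Genes of DNA replication had a like pattern with wider spread among the lines. All 28 listed members were tested, and 25 were lower in each line, beside 20.7% of all genes. At an unadjusted p under 0.05 there were 22, all of them lower, beside 7.0% of all genes, and 1 passed the threshold. The median log2 change was -0.93, and in single lines it was -1.70 in WT#1-4, -0.58 in Nox4-/-#5-8 and -0.72 in Nox4-/-#5-23. In WT#20D-17 it was -0.61, the same sign. The number past the threshold was 14 with DESeq2, 11 in the fit over 15 libraries, 19 without Nox4-/-#5-8, 9 without Nox4-/-#5-23, 1 without WT#1-4 and 1 with RLE normalization. Pole, the catalytic subunit of the leading-strand polymerase epsilon, went from 53.1 to 14.7 CPM in WT#1-4, from 63.3 to 19.5 CPM in Nox4-/-#5-8 and from 76.6 to 39.1 CPM in Nox4-/-#5-23, a log2 change of -1.47 ± 0.25 (SE, adjusted p = 0.0317). Pcna, the sliding clamp of the polymerases, was 209 and 74.5 CPM on days 7 and 14 in WT#1-4, 273 and 234 CPM in Nox4-/-#5-8 and 213 and 175 CPM in Nox4-/-#5-23 (adjusted p = 0.338), with the largest difference in WT#1-4. The transcription factor E2f1 had the highest fitted log2 change of the list, 0.28, at 21.6 and 16.3 CPM on days 7 and 14 in WT#1-4, 18.3 and 29.3 CPM in Nox4-/-#5-8 and 15.5 and 20.9 CPM in Nox4-/-#5-23 (adjusted p = 0.712). Outside the list, Dna2, a nuclease and helicase that trims Okazaki fragments and 1 of the 12 largest falls, went from 8.84 to 1.04 CPM in WT#1-4, from 15.7 to 4.13 CPM in Nox4-/-#5-8 and from 14.6 to 5.72 CPM in Nox4-/-#5-23, a log2 change of -2.03 ± 0.38 (SE, adjusted p = 0.045). Skp2, the F-box protein that marks the cyclin-dependent kinase inhibitor p27 for degradation, is also outside the list, was picked after its value was seen and fell with a log2 change of -1.19, adjusted p = 0.0479.

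**Figure D2:**
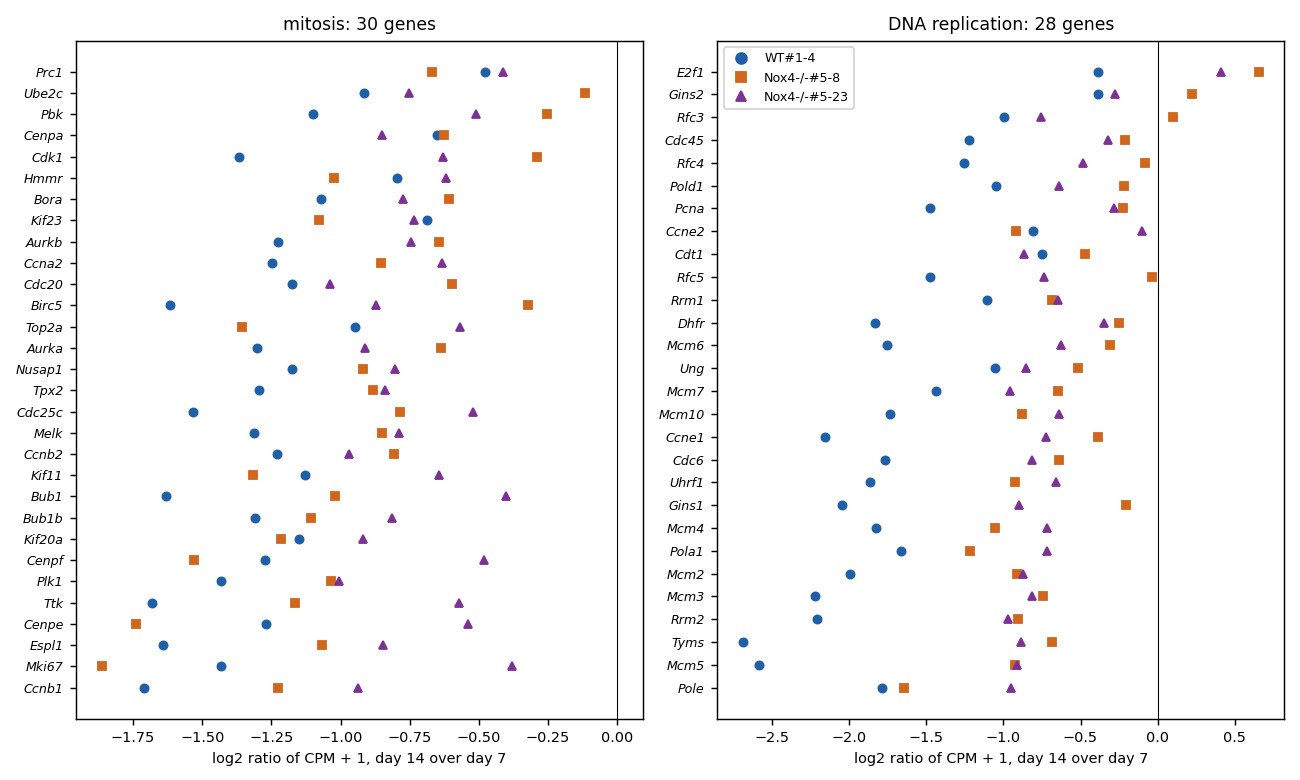
Log2 ratio of CPM + 1 at day 14 over day 7 for the 30 mitosis genes and the 28 DNA replication genes, 1 symbol per line, ordered by the fitted change. All points of the mitosis genes lie left of 0, and in the replication list WT#1-4 lies farthest to the left for most genes while E2f1, Gins2 and Rfc3 have a Nox4-/- line right of 0.

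DNA methylation enzymes, of which Dnmt1 acts at the replication fork, had 0 calls. Of 11 enzymes tested, 4 were called by DESeq2, and the median was -0.20. At an unadjusted p under 0.05 there were 4, all lower, beside 7.0% of all genes. Dnmt1, the maintenance methyltransferase, was 212 and 91.5 CPM on days 7 and 14 in WT#1-4, 235 and 102 CPM in Nox4-/-#5-8 and 181 and 104 CPM in Nox4-/-#5-23, with a log2 change of -1.03 ± 0.24 (SE, adjusted p = 0.0718). Cell cycle inhibitors and p53 targets had 0 of 22 past the threshold and a median of 0.12. At an unadjusted p under 0.05, 5 were higher and 1 lower, beside 7.58% and 7.0% of all genes. In each of the 3 lines 5 were higher and 2 lower, beside 17.3% and 20.7%. The line medians were 0.58 in WT#1-4, 0.29 in Nox4-/-#5-8 and -0.10 in Nox4-/-#5-23.

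Immediate early genes, the transcription factors and phosphatases that cells induce within minutes of a stimulus, were mostly higher at day 14. Of 18 tested, 13 were higher in each line, beside 17.3% of all genes. At an unadjusted p under 0.05 there were 11, all higher, beside 7.58% of all genes, and 1 passed. The median log2 change was 0.70, with line medians of 0.69, 0.61 and 0.38 in the order WT#1-4, Nox4-/-#5-8 and Nox4-/-#5-23, and 0.81 in WT#20D-17. Dusp1, a phosphatase that inactivates MAP kinases, went from 66.4 to 271 CPM in WT#1-4, from 12.4 to 28.7 CPM in Nox4-/-#5-8 and from 10.8 to 30.9 CPM in Nox4-/-#5-23, a log2 change of 1.63 ± 0.26 (SE, adjusted p = 0.0201). In WT#20D-17 it went from 24.3 to 49.9 CPM. The annotated interval of Dusp1 also spans Ergic1, so reads of the pair may be divided. Fosl2, a subunit of the AP-1 factor, was 99.4 and 229 CPM on days 7 and 14 in WT#1-4, 63.1 and 108 CPM in Nox4-/-#5-8 and 92.0 and 297 CPM in Nox4-/-#5-23, with a log2 change of 1.26 ± 0.26 (SE, adjusted p = 0.0527), and its day groups did not overlap. Fos itself was 94.0 and 128 CPM on days 7 and 14 in WT#1-4, 47.6 and 77.0 CPM in Nox4-/-#5-8 and 44.6 and 60.6 CPM in Nox4-/-#5-23 (adjusted p = 0.266). Heat shock and unfolded protein genes had 0 calls of 15 and a median of 0.31. At an unadjusted p under 0.05, 4 of them were higher and 0 lower, beside 7.58% and 7.0% of all genes. In each of the 3 lines 6 were higher and 1 lower, beside 17.3% and 20.7%.

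The response to low oxygen and glycolysis had 2 members past the threshold of 23 tested, both secreted signals. Adm, the vasodilator adrenomedullin, went from 39.0 to 151 CPM in WT#1-4, from 3.28 to 7.19 CPM in Nox4-/-#5-8 and from 2.97 to 14.8 CPM in Nox4-/-#5-23, a log2 change of 1.86 ± 0.28 (SE, adjusted p = 0.0192). Vegfa, the main growth factor of blood vessels, went from 376 to 928 CPM in WT#1-4, from 106 to 204 CPM in Nox4-/-#5-8 and from 80.6 to 221 CPM in Nox4-/-#5-23, a log2 change of 1.27 ± 0.25 (SE, adjusted p = 0.0457). WT#1-4 was the highest line for both on both days. Further members with an unadjusted p under 0.05 were all higher and brought the number to 7, among them Egln3, an oxygen-sensing hydroxylase, at 452 and 653 CPM on days 7 and 14 in WT#1-4, 269 and 687 CPM in Nox4-/-#5-8 and 205 and 815 CPM in Nox4-/-#5-23 (adjusted p = 0.0663). These 7 of 23 stood beside 7.58% of all genes. The list had a median of 0.43, and 11 of its members were higher in each line, beside 17.3% of all genes. Its line medians were 0.08 in WT#1-4, 0.52 in Nox4-/-#5-8 and 0.46 in Nox4-/-#5-23. Of its enzymes, Gapdh was 4877 and 5147 CPM on days 7 and 14 in WT#1-4, 4465 and 6118 CPM in Nox4-/-#5-8 and 3853 and 3663 CPM in Nox4-/-#5-23 (log2 change 0.19) and Pkm had a log2 change of 0.12. Slc2a3, the high-affinity glucose transporter GLUT3, is outside the list and fell from 119 to 27.7 CPM in WT#1-4, from 79.6 to 18.9 CPM in Nox4-/-#5-8 and from 16.9 to 6.23 CPM in Nox4-/-#5-23, a log2 change of -1.84 ± 0.25 (SE, adjusted p = 0.0104). The level of Slc2a3 in WT#20D-17 was 4550.1 and 2182 CPM on days 7 and 14.

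Cholesterol synthesis had line medians that lay far apart. Of 23 tested, 11 had an unadjusted p under 0.05, all higher, beside 7.58% of all genes. In each line 12 were higher, beside 17.3% of all genes, and 1 passed. The median was 1.17 in WT#1-4 and 0.74 in Nox4-/-#5-23 but 0.05 in Nox4-/-#5-8. Members called were 13 without that line, 0 without Nox4-/-#5-23, 1 without WT#1-4 and 4 with DESeq2. Msmo1, a sterol methyl oxidase, went from 91.6 to 355 CPM in WT#1-4, from 29.5 to 47.1 CPM in Nox4-/-#5-8 and from 23.9 to 88.7 CPM in Nox4-/-#5-23, a log2 change of 1.55 ± 0.30 (SE, adjusted p = 0.0457), and it was not called with RLE normalization. Insig1, the sterol-regulated brake on the pathway, was 261 and 1144 CPM on days 7 and 14 in WT#1-4, 49.6 and 49.5 CPM in Nox4-/-#5-8 and 60.4 and 166 CPM in Nox4-/-#5-23 (adjusted p = 0.147), higher at day 14 in 2 lines and level in Nox4-/-#5-8. In WT#20D-17 the list had a median of -1.21, the opposite sign, with Msmo1 from 92.2 to 32.3 CPM. Genes of fatty acid synthesis and lipid storage had a median of -0.11 and 0 calls of 14.

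**Figure D3:**
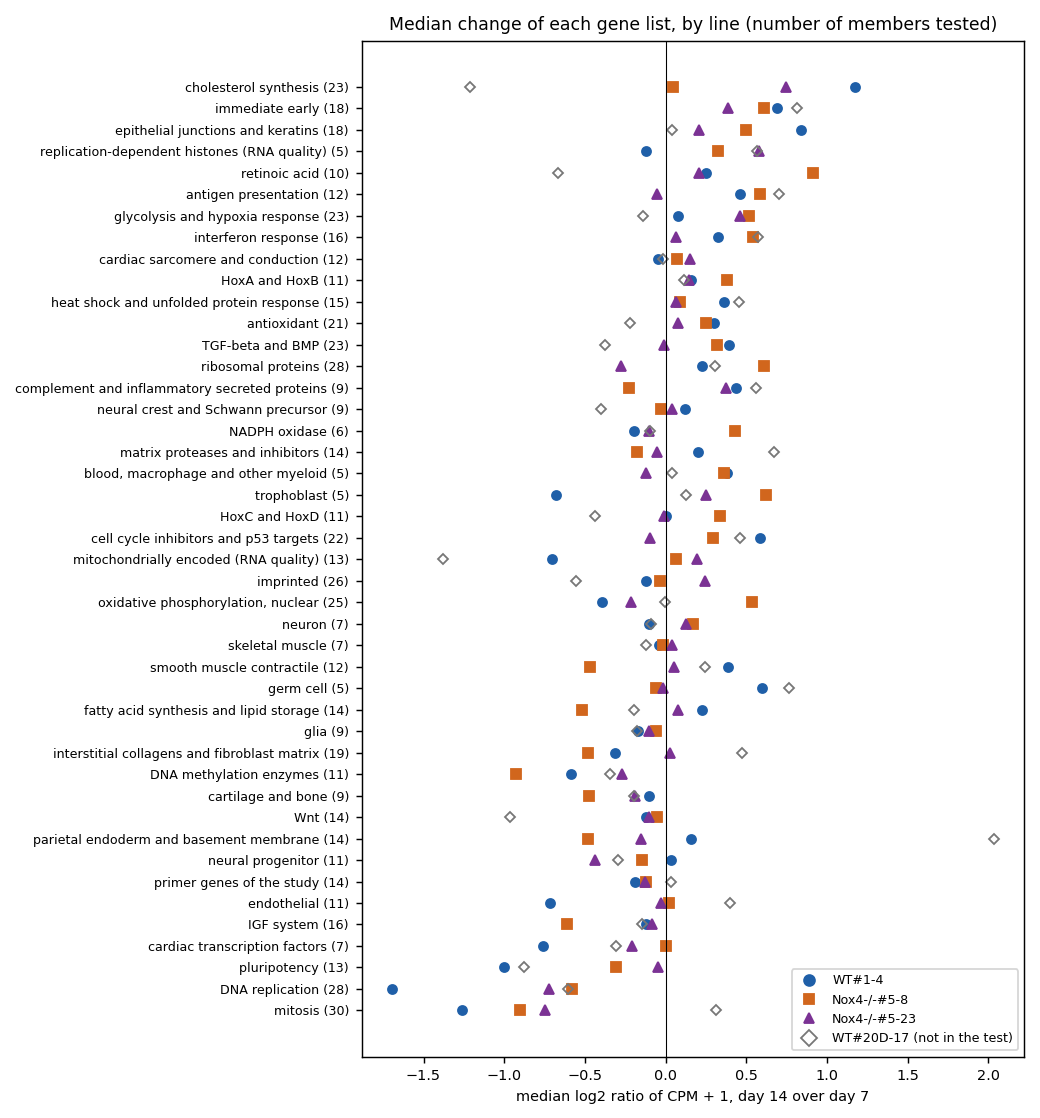
Median log2 ratio of CPM + 1, day 14 over day 7, for each gene list with at least 5 members tested, in each of the 3 lines and in WT#20D-17 (open diamonds, outside the test). The medians of mitosis and DNA replication lie left of -0.5 in all 3 lines, while cholesterol synthesis spans 0.05 to 1.17 among them and is -1.21 in WT#20D-17.

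Among secreted signals, single ligands rose. Bmp6, a bone morphogenetic protein, went from 13.6 to 48.2 CPM in WT#1-4, from 0.433 to 3.20 CPM in Nox4-/-#5-8 and from 0.932 to 7.25 CPM in Nox4-/-#5-23, a log2 change of 2.50 ± 0.34 (SE, adjusted p = 0.0117). It was the 1 call of 23 TGF-beta and BMP genes, whose median was 0.26. The BMP target Id1 was 258 and 495 CPM on days 7 and 14 in WT#1-4, 282 and 623 CPM in Nox4-/-#5-8 and 232 and 216 CPM in Nox4-/-#5-23 (adjusted p = 0.285). Wnt11, a ligand of noncanonical Wnt signalling, went from 3.83 to 10.7 CPM in WT#1-4, from 1.20 to 8.16 CPM in Nox4-/-#5-8 and from 3.20 to 11.6 CPM in Nox4-/-#5-23, a log2 change of 2.04 ± 0.38 (SE, adjusted p = 0.0407), and the day groups did not overlap. Wnt9a went from 9.90 to 32.2 CPM in WT#1-4, from 2.31 to 6.40 CPM in Nox4-/-#5-8 and from 4.66 to 12.4 CPM in Nox4-/-#5-23, a log2 change of 1.57 ± 0.29 (SE, adjusted p = 0.0438). The 14 Wnt pathway genes tested, these 2 included, had a median of -0.30. In each line 6 were lower and 4 higher, beside 20.7% and 17.3% of all genes. Crabp2, which carries retinoic acid to its nuclear receptor, went from 2.69 to 9.97 CPM in WT#1-4, from 20.8 to 82.5 CPM in Nox4-/-#5-8 and from 5.68 to 33.8 CPM in Nox4-/-#5-23, a log2 change of 2.19 ± 0.26 (SE, adjusted p = 0.00686). It was the 1 call of 10, and Dhrs3, which reduces retinal, was 37.3 and 65.2 CPM on days 7 and 14 in WT#1-4, 29.3 and 115 CPM in Nox4-/-#5-8 and 69.9 and 107 CPM in Nox4-/-#5-23 (adjusted p = 0.0843).

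The IGF system, which the study examined, had 0 calls of 16 tested with edgeR and 3 with DESeq2. At an unadjusted p under 0.05, 2 were higher and 5 lower, beside 7.58% and 7.0% of all genes. The growth factor Igf2 was 54.4 and 51.8 CPM on days 7 and 14 in WT#1-4, 3.52 and 1.48 CPM in Nox4-/-#5-8 and 3.77 and 1.31 CPM in Nox4-/-#5-23, with a log2 change of -0.83 ± 0.33 (SE, adjusted p = 0.278). WT#1-4 was thus far above both Nox4-/- lines on both days, and its own levels were close to each other. The level of Igf2 in WT#20D-17 was 4705 and 3592 CPM on days 7 and 14. The binding protein Igfbp3 was 432 and 516 CPM on days 7 and 14 in WT#1-4, 581 and 1290.3 CPM in Nox4-/-#5-8 and 617 and 2149 CPM in Nox4-/-#5-23, with a log2 change of 1.11 ± 0.30 (SE, adjusted p = 0.114), and the protease Htra1, which cleaves binding proteins, was 138 and 411 CPM on days 7 and 14 in WT#1-4, 73.4 and 184 CPM in Nox4-/-#5-8 and 191 and 308 CPM in Nox4-/-#5-23, with a log2 change of 1.23 ± 0.26 (SE, adjusted p = 0.0577). Of the NADPH oxidase list, 6 of 15 members were tested and 0 passed, with Rac1, the small GTPase that activates several oxidases, at 289 and 255 CPM on days 7 and 14 in WT#1-4, 245 and 326 CPM in Nox4-/-#5-8 and 368 and 369 CPM in Nox4-/-#5-23. Antioxidant genes had 0 calls of 21 and a median of 0.28. At an unadjusted p under 0.05, 4 of them were higher and 1 lower, beside 7.58% and 7.0% of all genes.

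Imprinted genes, which are expressed from 1 parental allele, had 2 falls among 26 tested and a median of 0.09. Peg10, a retrotransposon-derived gene needed by the placenta, went from 18.8 to 3.02 CPM in WT#1-4, from 12.3 to 0.417 CPM in Nox4-/-#5-8 and from 2.22 to 0.547 CPM in Nox4-/-#5-23, a log2 change of -3.06 ± 0.53 (SE, adjusted p = 0.0326). Mest, a paternally expressed gene of embryonic mesoderm, went from 38.2 to 9.47 CPM in WT#1-4, from 4.96 to 1.53 CPM in Nox4-/-#5-8 and from 4.40 to 1.82 CPM in Nox4-/-#5-23, a log2 change of -1.63 ± 0.32 (SE, adjusted p = 0.0463). Both were far higher in WT#20D-17, where Peg10 was 1576 and 1355 CPM on days 7 and 14 and Mest was 523 and 115 CPM on days 7 and 14.

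Pluripotency genes had 1 fall past the threshold among 13 tested, and a median of -0.60. At an unadjusted p under 0.05, 5 were lower, and 8 were lower in each line, beside 7.0% and 20.7% of all genes. Tdgf1 (Cripto) went from 5.31 to 1.59 CPM in WT#1-4, from 20.8 to 5.61 CPM in Nox4-/-#5-8 and from 4.62 to 1.24 CPM in Nox4-/-#5-23, a log2 change of -1.81 ± 0.35 (SE, adjusted p = 0.0457). The line medians were -1.0 in WT#1-4, -0.31 in Nox4-/-#5-8 and -0.05 in Nox4-/-#5-23. Pou5f1 had a log2 change of -0.57, adjusted p = 0.375, and the level in Nox4-/-#5-23 was nearly the same on both days. Myb, a transcription factor of blood progenitors that stem cells also express, went from 20.5 to 6.99 CPM in WT#1-4, from 18.9 to 7.37 CPM in Nox4-/-#5-8 and from 23.8 to 6.12 CPM in Nox4-/-#5-23, a log2 change of -1.59 ± 0.28 (SE, adjusted p = 0.0367), and its day groups did not overlap.

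Listed lineage genes were counted together. Over 20 lists of cell types, from heart and muscle to blood, nerve, gut and trophoblast, 138 of 329 genes were tested and 1, Krt7, passed, and the next lowest adjusted p was 0.0521. DESeq2 called 17 of the 138. At an unadjusted p under 0.05, 19 (13.8%) were higher and 15 (10.9%) lower, beside 7.58% and 7.0% of all genes. The share higher in each line was 18.8% and the share lower 22.5%, beside 17.3% and 20.7%. The median log2 change of the 14 lists with at least 5 genes tested lay between -0.49 and 0.32. Des, the intermediate filament of muscle, was 606 and 380.3 CPM on days 7 and 14 in WT#1-4, 75.1 and 180.3 CPM in Nox4-/-#5-8 and 86.0 and 48.1 CPM in Nox4-/-#5-23 (adjusted p = 0.961). The endothelial receptor Tek was 349 and 246 CPM on days 7 and 14 in WT#1-4, 126 and 82.9 CPM in Nox4-/-#5-8 and 225 and 204 CPM in Nox4-/-#5-23 (adjusted p = 0.52). Mbp, a protein of myelin, was 98.1 and 122 CPM on days 7 and 14 in WT#1-4, 112 and 84.3 CPM in Nox4-/-#5-8 and 180.0 and 132 CPM in Nox4-/-#5-23 (adjusted p = 0.848). Tek was lower at day 14 in all 3 lines, and Des and Mbp moved in different directions among them. On day 0, before differentiation, Tek was already at 282, 118 and 144 CPM in the same order of lines. Mbp was at 60.8, 50.1 and 53.3 CPM then, and Des at 1049, 18.4 and 7.43 CPM. Their levels alone cannot be read as cell types formed in the EBs.

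The 21 germ layer markers for which the study lists PCR primers were counted on their own. Of these, 13 were tested, and 0 passed with edgeR and 1 with DESeq2. At an unadjusted p under 0.05, 1 was lower and 0 higher, beside 7.0% and 7.58% of all genes. In each line 3 were lower and 0 higher, beside 20.7% and 17.3%. The endothelial claudin Cldn5 had the lowest adjusted p, 0.0794, and it was 70.0 and 23.2 CPM on days 7 and 14 in WT#1-4, 0 and 0 CPM in Nox4-/-#5-8 and 1.11 and 0.255 CPM in Nox4-/-#5-23. The neuronal protein Map2 was 239 and 443 CPM on days 7 and 14 in WT#1-4, 48.0 and 28 CPM in Nox4-/-#5-8 and 5.33 and 17.8 CPM in Nox4-/-#5-23 (adjusted p = 0.515), so the lines differed in direction. On day 0 Map2 was already at 196 CPM in WT#1-4, with 13.4 CPM in Nox4-/-#5-8 and 8.70 CPM in Nox4-/-#5-23. The heart factor Gata4 was 2.96 and 1.04 CPM on days 7 and 14 in WT#1-4, 1.49 and 1.81 CPM in Nox4-/-#5-8 and 1.42 and 1.09 CPM in Nox4-/-#5-23, and the mesoderm receptor Pdgfra was 13.3 and 11.2 CPM on days 7 and 14 in WT#1-4, 1.88 and 1.53 CPM in Nox4-/-#5-8 and 2.89 and 3.97 CPM in Nox4-/-#5-23. The level of Gata4 in WT#20D-17 was 602 and 643 CPM on days 7 and 14 and Pdgfra was 170.2 and 297 CPM on days 7 and 14.

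Matrix genes were abundant, and their directions differed between lists and lines. Of 19 interstitial matrix genes tested, 0 passed, and the fitted change was lower for 14. At an unadjusted p under 0.05, 1 was higher and 5 lower, beside 7.58% and 7.0% of all genes. In each of the 3 lines 0 were higher and 6 lower, beside 17.3% and 20.7%. The median was -0.17, with line medians of -0.31 in WT#1-4, -0.48 in Nox4-/-#5-8 and 0.03 in Nox4-/-#5-23. Fibronectin, Fn1, was 2462 and 3722 CPM on days 7 and 14 in WT#1-4, 1858 and 1179 CPM in Nox4-/-#5-8 and 2855 and 3105 CPM in Nox4-/-#5-23. The protease inhibitor Timp3 was 462 and 955 CPM on days 7 and 14 in WT#1-4, 531 and 575 CPM in Nox4-/-#5-8 and 491 and 1076 CPM in Nox4-/-#5-23 (adjusted p = 0.205), with separate day groups. Basement membrane genes had a median of -0.32 in the fit. Their line medians were 0.16 in WT#1-4, -0.48 in Nox4-/-#5-8, -0.15 in Nox4-/-#5-23 and 2.04 in WT#20D-17. Of 14 tested, 3 were higher and 7 lower in each of the 3 lines, beside 17.3% and 20.7% of all genes. Sparc went from 1329 to 2089 CPM in WT#1-4, from 679 to 875 CPM in Nox4-/-#5-8 and from 620 to 824 CPM in Nox4-/-#5-23. The laminin chain Lamc1 was 2137 and 9392 CPM on days 7 and 14 in WT#20D-17. In the 3 lines Lamc1 was 607 and 929 CPM on days 7 and 14 in WT#1-4, 375 and 166 CPM in Nox4-/-#5-8 and 692 and 658 CPM in Nox4-/-#5-23.

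Among immune genes, Tapbp, which loads peptides on MHC class I molecules, went from 83.1 to 194 CPM in WT#1-4, from 53.3 to 155 CPM in Nox4-/-#5-8 and from 105 to 192 CPM in Nox4-/-#5-23, a log2 change of 1.25 ± 0.24 (SE, adjusted p = 0.0457), with separate day groups, and was the 1 call of 12 antigen presentation genes. The interferon list had 0 calls of 16 and a median of 0.41, and complement genes had 0 of 9. At an unadjusted p under 0.05, 4 interferon and 2 complement genes were higher and 0 lower, beside 7.58% and 7.0% of all genes. In each of the 3 lines 5 interferon and 3 complement genes were higher and 0 lower, beside 17.3% and 20.7%. Macrophage genes had 0 of 5. Hox genes had 0 calls of 11 in the HoxA and HoxB clusters and 0 of 11 in HoxC and HoxD, with medians of 0.32 and 0.13. In each of the 3 lines 6 HoxA or HoxB genes were higher and 0 lower, against the same shares. For HoxC and HoxD, 1 was higher and 1 lower.

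Some lists that bear on RNA quality moved with the step. Libraries were made from polyadenylated RNA, and most replication-dependent histone mRNAs lack a poly(A) tail. Of the 5 histone genes tested, 2 rose. Hist1h2bc went from 36.4 to 161 CPM in WT#1-4, from 22.1 to 60.3 CPM in Nox4-/-#5-8 and from 15.6 to 37.7 CPM in Nox4-/-#5-23, a log2 change of 1.66 ± 0.26 (SE, adjusted p = 0.0201), and Hist1h1c went from 31.4 to 109 CPM in WT#1-4, from 16.5 to 57.5 CPM in Nox4-/-#5-8 and from 17.1 to 29.6 CPM in Nox4-/-#5-23, a log2 change of 1.5 ± 0.27 (SE, adjusted p = 0.0377). In the other direction Hist1h3c was 0.721 and 0.0992 CPM on days 7 and 14 in WT#1-4, 0.771 and 0.278 CPM in Nox4-/-#5-8 and 1.47 and 0.0729 CPM in Nox4-/-#5-23, with a log2 change of -2.70 ± 0.76 (SE, adjusted p = 0.123), lower in all 3 lines and not past the threshold. Histone genes have near-identical copies, so the division of reads among them is uncertain. Their summed level with the other listed histones went from 73.1 to 274 CPM in WT#1-4, from 41.1 to 120.3 CPM in Nox4-/-#5-8 and from 36.0 to 69.4 CPM in Nox4-/-#5-23, while replication genes were lower. Mitochondrially encoded genes had 0 calls of 13 with line medians of -0.71, 0.07 and 0.19. Ribosomal protein genes had 0 of 28 with line medians of 0.22, 0.61 and -0.27, and nuclear genes of oxidative phosphorylation 0 of 25 with -0.39, 0.53 and -0.21. The part of RNA quality in the results above was not tested.

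The remaining large falls belong to no list. Crocc2, a relative of the ciliary rootlet protein rootletin, went from 25.9 to 1.78 CPM in WT#1-4, from 7.27 to 0.835 CPM in Nox4-/-#5-8 and from 23.5 to 5.18 CPM in Nox4-/-#5-23, a log2 change of -2.98 ± 0.38 (SE, adjusted p = 0.00922). St8sia2, which adds polysialic acid to the neural adhesion molecule NCAM, went from 12.2 to 2.38 CPM in WT#1-4, from 27.9 to 8.49 CPM in Nox4-/-#5-8 and from 68.7 to 23.1 CPM in Nox4-/-#5-23, a log2 change of -1.83 ± 0.26 (SE, adjusted p = 0.0151). Tro, the adhesion protein trophinin on the X chromosome, went from 16.3 to 2.68 CPM in WT#1-4, from 10.1 to 1.67 CPM in Nox4-/-#5-8 and from 3.82 to 1.20 CPM in Nox4-/-#5-23, a log2 change of -2.26 ± 0.38 (SE, adjusted p = 0.03). Armcx4, an X-linked armadillo repeat gene, went from 30.2 to 6.79 CPM in WT#1-4, from 15.3 to 1.85 CPM in Nox4-/-#5-8 and from 13.5 to 5.25 CPM in Nox4-/-#5-23, a log2 change of -2.12 ± 0.36 (SE, adjusted p = 0.03), while the held-out line WT#20D-17 had 87.0 and 82.1 CPM on days 7 and 14. Ly6f, of the LY6 family, went from 16.6 to 1.54 CPM in WT#1-4, from 3.03 to 0.510 CPM in Nox4-/-#5-8 and from 11.9 to 4.23 CPM in Nox4-/-#5-23, a log2 change of -2.42 ± 0.44 (SE, adjusted p = 0.0394), and reads may be divided among its close paralogs. Day groups did not overlap for Crocc2, Tro and Armcx4, and they overlapped for St8sia2 and Ly6f.

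Whether the step differed between genotypes was asked with an interaction of day and genotype, which rests on 1 wild type line, 2 Nox4-/- lines and 1 residual degree of freedom. Its p-values lean on variance borrowed from other genes. It called 67 genes, 0.439% of 15275, and 5.98% had an unadjusted p under 0.05. The change was higher in the Nox4-/- lines for 51 and lower for 16. For 31 the value was lower at day 14 in WT#1-4 and higher in both Nox4-/- lines, and for 7 the reverse. Among the 31, Gm21698, Gm7347, Gm21663, 5031410I06Rik, Gm10471, Gm21680 and Speer4a lie on the minus strand of chromosome 5, between 25935791 and 26105362. All of these were at 0 CPM in WT#20D-17 on both days. Reads may be divided among such neighbours, so they cannot be taken as separate observations. Line and genotype cannot be told apart on the wild type side. When WT#20D-17 joined WT#1-4 on the wild type side, 0 genes passed with edgeR, while 888 had an unadjusted p under 0.05, and with DESeq2 on the 6 libraries 17 passed.

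Slc26a7, an anion exchanger, was 95.0 and 5.75 CPM on days 7 and 14 in WT#1-4, 6.07 and 1.85 CPM in Nox4-/-#5-8 and 1.51 and 6.45 CPM in Nox4-/-#5-23, an interaction of 4.15 ± 0.67 (SE, adjusted p = 2.84e-06). Tph1, the enzyme that starts serotonin synthesis outside the brain, was 6.90 and 0.793 CPM on days 7 and 14 in WT#1-4, 4.62 and 12.2 CPM in Nox4-/-#5-8 and 38.8 and 77.1 CPM in Nox4-/-#5-23, an interaction of 4.22 ± 0.69 (SE, adjusted p = 3.45e-06). It was highest in Nox4-/-#5-23 on both days. Pecam1, an adhesion molecule of endothelial cells and of early stem cells, was 73.0 and 7.39 CPM on days 7 and 14 in WT#1-4, 76.1 and 20.7 CPM in Nox4-/-#5-8 and 34.2 and 34.5 CPM in Nox4-/-#5-23, an interaction of 2.29 ± 0.62 (SE, adjusted p = 0.046). Its level in Nox4-/-#5-23 was nearly the same on both days, while both other lines were lower on day 14. The 2 lowest p-values belonged to the long noncoding genes Gm26649 and Gm26778, which lie on the strand opposite to Klf7 and Kctd12. Gm26649 was 19.7 and 0 CPM on days 7 and 14 in WT#1-4, 12.3 and 7.23 CPM in Nox4-/-#5-8 and 12.2 and 17.9 CPM in Nox4-/-#5-23, and Gm26778 was 0 and 3.52 CPM on days 7 and 14 in WT#1-4, 4.96 and 0 CPM in Nox4-/-#5-8 and 1.42 and 0 CPM in Nox4-/-#5-23. With libraries at 0 counts their fitted fold is no bound, and 8 of the 67 genes had such a library.

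**Figure D4:**
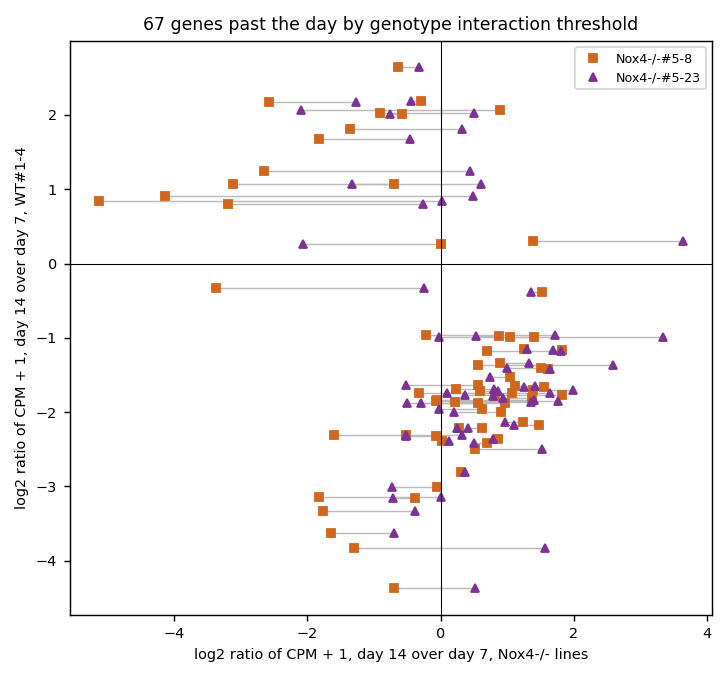
Log2 ratio of CPM + 1 at day 14 over day 7 in WT#1-4 (vertical axis) and in the Nox4-/- lines (horizontal axis) for the 67 genes past the interaction threshold, with the values of both Nox4-/- lines joined by a grey line. For 31 genes both points lie in the lower right, where WT#1-4 is lower at day 14 and the Nox4-/- lines are higher, and the grey lines show how far the 2 Nox4-/- lines differ from each other.

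The late step was also set against the earlier step from day 3 to day 5 in the same lines, with 12 libraries and 6 residual degrees of freedom. The late step spans more days than the earlier one, and the difference was not scaled to that length. A larger change in the late step is therefore not a faster one. In the edgeR test 0 of 16641 genes (0.0%) differed between the steps, 880 (5.29%) had an unadjusted p under 0.05, and DESeq2 called 43. The lowest adjusted p was 0.500. For the 4 genes with the lowest p the change was lower in the late step. The difference of the steps was -2.01 ± 0.34 log2 units for Tro, -1.78 ± 0.26 for St8sia2, -2.95 ± 0.50 for the cartilage collagen Col2a1 and -2.24 ± 0.39 for the lipid transporter Abca6 (± SE). From day 3 to day 5 the mitosis list had medians of -0.08 in WT#1-4, -0.26 in Nox4-/-#5-8 and -0.58 in Nox4-/-#5-23, beside -1.26, -0.90 and -0.75 in the late step. The change was lower in the late step for 29 of the 30 mitosis genes, with a median difference of -0.60. Of the 30, 19 had an unadjusted p under 0.05 for the difference of the steps. Over the 15275 genes of the late step test, the change was lower for 7470, and 770 had such a p. For replication genes 3 of 28 had such a p. For cholesterol synthesis 15 of 23 had it, all 23 were higher in the late step, and the median difference was 1.17. None of these genes passed after adjustment over all genes in the edgeR test, and without the filter on low counts that test called 10 genes in all.

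WT#20D-17 gave a separate view of the 93 genes in a line that the test did not use, with 1 library per day and no replicate. Of the 66 genes that rose and reached 3 counts there, 45 (68.2%) were higher at day 14, beside 45.8% of all genes tested. Of 21 that fell, 18 (85.7%) were lower, beside 54.2% of all. Tdgf1 went from 49.7 to 8.97 CPM, Mest from 523 to 115 CPM, Myb from 2.84 to 0.315 CPM and Nupr1 from 2.13 to 17 CPM. Other genes went the opposite way or hardly moved, with Cpn1 from 21.7 to 4.46 CPM, Crabp2 from 13.8 to 2.31 CPM, Ccnb1 from 237 to 254 CPM and Krt7 from 83.5 to 85.0 CPM. With WT#20D-17 added to the other 3 lines, 2 genes passed the threshold and 2368 had an unadjusted p under 0.05.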

How the data were processed

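The authors sequenced stranded, paired-end mRNA libraries, trimmed reads with fastx_toolkit, mapped them to mm10 with STAR 2.6.0c and estimated counts per gene with RSEM 1.3.1 on an Ensembl annotation. The deposited values are RSEM expected counts for 20 libraries in 1 table, without normalization. The strand setting of RSEM is not given in the sources used here. RSEM divides reads that match several genes, so values of close paralogs and overlapping genes are uncertain, and 39 of the 93 genes called overlap another annotated gene, 31 of them one on the opposite strand. Symbols and coordinates came from GENCODE M21 (GRCm38), in which 55480 of 55573 identifiers were found. Every column of samples was matched to a label.

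Expected counts were rounded and tested with edgeR 4.0.16 in R 4.3.3 (limma 3.58.1): TMM normalization, filterByExpr by day, and a quasi-likelihood fit with line as replicate block and day, 2 residual degrees of freedom, Benjamini-Hochberg adjustment over 15275 genes and a threshold of 0.05. The line is the source of the pairing. The fit moderates the variance of each gene toward that of other genes, with a median of 9.81 prior degrees of freedom. Each SE was derived from the test, as the absolute log2 change divided by the square root of the F statistic. It is not the spread of the change between lines. DESeq2 1.42.0 was an alternative. Further fits added the interaction of day and genotype, or compared the step with that from day 3 to day 5. CPM used TMM factors over 20 libraries, and log2 ratios of single lines used CPM + 1. The limits on low counts cover counting error only.

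Named genes are the 12 largest rises and falls among coding genes that passed the threshold and averaged 10 CPM or more on the higher day, the primer genes of the study with Igf2 and Nox4, the 4 lowest p-values of the other tests, and in each of 50 lists up to 4 members past the threshold, or the 2 most abundant where fewer than 2 passed. Genes named beyond this rule were chosen after their values were seen. The lists and comparisons were chosen with earlier results of these data known. Promoters were to be those of the list with the largest median change in either direction. It was read as 1 list in each direction after medians and motif shares were seen, because the named members of the list with the highest median, kidney and mesothelium (3 tested), had no window. Alternatives covered normalization, filter, tool, block, libraries, threshold and lines.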

Additional observations from a re-analysis of the deposited data

Results flagged for a closer look

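The interaction test of day and genotype called 67 genes. It sets 1 wild type line against 2 Nox4-/- lines, so line and genotype cannot be told apart on the wild type side, and with WT#20D-17 added to that side 0 genes passed. For Slc26a7 the fitted difference of the log2 change, Nox4-/- minus WT, was 4.15, and for Tph1 it was 4.22. For Pecam1 it was 2.29, with an adjusted p of 0.0460. For Gm26649 the fitted difference was 11.75 and for Gm26778 it was -18.51, and both rest on libraries at 0 counts, so these values depend on the prior count and are no bound.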

How the results depend on the processing

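For the late step the 93 calls became 12 at an adjusted p of 0.01, 703 without a filter on low counts, 650 with DESeq2, 524 with all 15 libraries, 2 with WT#20D-17 added and 253 to 910 when 1 line was left out. With no replicate block 0 genes passed, while 757 had an unadjusted p under 0.05; libraries of 1 line share their clone, so the pairing is by design. RLE and upper quartile normalization gave 67 and 86 calls. All 93 genes kept their sign under every alternative, each of which used all or most of the 6 libraries that picked them. The 67 interaction calls became 27 at an adjusted p of 0.01, 17 with DESeq2 and 0 with WT#20D-17. Leaving out a line was not run for the interaction because it leaves no residual degree of freedom. The comparison with the step from day 3 to day 5 gave 10 calls without the filter, 43 with DESeq2 and 0 otherwise, with no replicate block as well. The cause of these differences was not tested. With 1 library per line and day, genes near the floor of 0.112 to 0.148 CPM could not be compared.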
